A study of Mus musculus with 18 samples.

Results

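The genes described here are secreted ligands of the transforming growth factor beta (TGF-beta) and bone morphogenetic protein (BMP) family and the secreted proteins that block them, in 3T3-L1, mouse preadipocytes that become fat cells in culture. They were chosen by name: the ligand genes Tgfb1, Tgfb2, Tgfb3, Inhba, Bmp2 and Bmp4, and the antagonist genes Chrdl1, Grem1 and Fst. Of these 9 genes, 7 are among the 15194 genes that the deposited comparison tables list, and no table lists Bmp2 or Bmp4. RNA was sequenced from 18 libraries, 3 in each of 6 groups. Control cells (CTL), cells named as Mlkl knockouts (MLKL-/-) and cells named as Ripk3 knockouts (RIPK3-/-) were taken untreated as preadipocytes (J0) or differentiated (J7). MLKL is the pseudokinase that breaks the plasma membrane in necroptosis, a form of programmed cell death, and its activator is the kinase RIPK3. All groups share the same cell line. How the knockouts were made, whether a line is 1 clone and which agents drove differentiation are not given in the sources used here. Groups are named by the sample titles, which are also the table names. For the 6 J7 knockout libraries the genotype label names the other knockout, so J7 MLKL and J7 RIPK3 below are title names only. Each change of a knockout line from J0 to J7, and its test against the control change, therefore assumes that the titles are right.

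TGF-beta ligands are secreted in a latent complex, are released from it at the cell surface or in the matrix, and signal through receptor kinases to SMAD2 and SMAD3. BMPs signal through related receptors to SMAD1, SMAD5 and SMAD9, and activins, among them activin A, the dimer of the Inhba product, use the TGF-beta branch. Extracellular antagonists bind the ligands before they reach a receptor: gremlin and chordin-like proteins bind BMPs, and follistatin binds activins. In fat-cell precursors TGF-beta and activin signals are known to hold back differentiation, and BMP signals are known to favour commitment to the fat lineage.

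Depth and labels bear on how the values can be read. The scale recovered for the libraries was 20.2 to 36.9 M reads, and levels below are counts divided by that scale in M (CPM). Every table was restricted to genes whose authors' adjusted p lies under 0.05. Entry to a test below thus depended on the authors' calls in these same libraries, which raises the counts and shares called. Listed genes held 90.0 to 98.4% of the scale in the CTL and RIPK3 libraries, but 29.3 to 30.4% in J0 MLKL and 53.5 to 54.5% in J7 MLKL. Mlkl and Ripk3 transcripts were read in every library. Mlkl was at 18.2 to 19.8 CPM in J0 CTL, 7.19 to 9.72 in J0 MLKL, 14.5 to 17.7 in J0 RIPK3, 25.4 to 27.5 in J7 CTL, 13.9 to 16.4 in J7 MLKL and 26.5 to 32.3 in J7 RIPK3. Ripk3 was at 16.8 to 19.6 in J0 CTL, 5.73 to 9.44 in J0 MLKL, 14.7 to 17.3 in J0 RIPK3, 17.5 to 19.2 in J7 CTL, 7.73 to 12 in J7 MLKL and 10.2 to 11.7 in J7 RIPK3. These levels do not tell which gene carries an edit, since an edited gene can still be transcribed. Libraries J0 MLKL 2 and J7 MLKL 3 stood apart from the other 2 of their groups. Their root mean square differences were 0.332 and 0.598 on the log2 scale. The other libraries were at 0.192 and 0.209 in J0 MLKL and at 0.324 each in J7 MLKL. In the CTL and RIPK3 groups the range was 0.117 to 0.165. All 8 adipocyte markers were listed. Their summed level was 290.4 to 298 CPM in J0 CTL, 400.0 to 507 in J0 MLKL and 344 to 354 in J0 RIPK3, and it was 21609 to 22696 in J7 CTL, 3621 to 5163 in J7 MLKL and 23875 to 25826 in J7 RIPK3. Adiponectin (Adipoq) was at 0 in J0 CTL and J0 MLKL, and Cd36 was at 0 in J0 MLKL. Of 5 preadipocyte and fibroblast markers, 3 (Thy1, Col1a1 and Col3a1) had counts in all libraries. Their summed level was 7944 to 8426 in J0 CTL, 11025 to 11621 in J0 MLKL, 10066 to 10164 in J0 RIPK3, 2656 to 2719 in J7 CTL, 7098 to 7994 in J7 MLKL and 1722 to 1870 in J7 RIPK3. The sum is mostly Col1a1 and Col3a1, and single markers differed: Thy1 averaged 60.4 CPM in J7 MLKL, 261 in J0 CTL and 24.2 in J7 CTL, and Pdgfra, which is not in the sum, averaged 1164, 631 and 129. The summed adipocyte markers of J7 MLKL lay below both other J7 groups. In bulk RNA, fewer cells of a type and less RNA per cell cannot be told apart. Whether the 3 libraries of a group came from separate cultures is not given, so every p below measures only the spread between these libraries.

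Stretches of promoter are shown for the members whose levels moved with differentiation in all 3 lines and for which RefSeq holds an entry, because Inhba fell and Tgfb1 rose, and for Grem1, the member with the highest level per length in J0 CTL. They are the 180 bases from 250 to 71 before the RefSeq start, on the gene's strand, in build GRCm38.p6 (mm10), at chr13:16011601-16011780 (plus strand), chr2:113758719-113758898 (minus strand) and chr7:25686752-25686931 (plus strand). Capitals mark a match, on either strand, to the SMAD box CAGAC, the AP-1 site TGANTCA or the TATA box TATAAA, and the 3 motifs do not overlap one another here.
Inhba: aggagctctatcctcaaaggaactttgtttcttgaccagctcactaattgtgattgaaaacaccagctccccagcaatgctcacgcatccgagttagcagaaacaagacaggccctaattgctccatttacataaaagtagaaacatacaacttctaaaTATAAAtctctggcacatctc
Grem1: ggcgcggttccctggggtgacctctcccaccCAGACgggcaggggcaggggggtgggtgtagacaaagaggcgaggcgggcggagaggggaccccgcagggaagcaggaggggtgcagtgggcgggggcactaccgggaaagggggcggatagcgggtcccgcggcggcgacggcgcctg
Tgfb1: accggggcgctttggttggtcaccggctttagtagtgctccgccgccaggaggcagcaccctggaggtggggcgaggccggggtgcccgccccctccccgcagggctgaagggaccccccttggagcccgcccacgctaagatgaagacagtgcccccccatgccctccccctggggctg
Inhba has 1 TATA box, which 8.4% of 32851 promoter windows of the same length hold. Grem1 has 1 SMAD box, found in 33.2% of the windows. Tgfb1 holds none of the 3 motifs in this stretch, and AP-1 sites, found in 4.9% of windows, occur in none of the 3. The G+C share is 41.1% for Inhba, 75.0% for Grem1 and 72.2% for Tgfb1, beside a median of 51.1% over all windows. Of the 9 members, 5 (Tgfb1, Tgfb2, Inhba, Bmp4 and Grem1) had a RefSeq promoter entry.

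Differentiation of the control line changed every listed member (J7 CTL against J0 CTL). The TGF-beta ligand genes split: Tgfb1 and Tgfb2 rose, and Tgfb3 and the activin subunit gene Inhba fell. The BMP antagonist Grem1 and the activin antagonist Fst fell, and the BMP antagonist Chrdl1 rose. By edgeR's quasi-likelihood test, 7 of 7 members were called, 3 higher and 4 lower, at an adjusted p under 0.05. In the same comparison 95.9% of all 12055 tested genes passed, 48.2% as higher and 47.6% as lower, and the libraries of the groups did not overlap for 95.7%, so the count of members is at the background. The median absolute log2 fold change was 3.18 over the members and 0.84 over all tested genes, and 0.94 and 0.77 in J7 MLKL against J0 MLKL. These medians are a description only, since the members were chosen with results of these data known.

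Tgfb1 (ENSMUSG00000002603, mm10 chr7:25687002-25705077, plus strand) encodes the most widely expressed of the TGF-beta ligands. It was at 23.7, 21.9 and 21.7 CPM in J0 CTL and at 65.3, 62.9 and 60.4 in J7 CTL. All J7 libraries lay above all J0 libraries, and the log2 fold change was 1.44 ± 0.05 (SE, n = 3 per group, edgeR adjusted p 2.39e-18). Tgfb2 (ENSMUSG00000039239, mm10 chr1:186622792-186705989, minus strand), a second TGF-beta ligand, moved less. Its levels were 13.5, 12.8 and 13.4 in J0 CTL and 22.0, 21.1 and 20.7 in J7 CTL, a log2 rise of 0.64 ± 0.07 (edgeR adjusted p 9.73e-09). Tgfb3 (ENSMUSG00000021253, mm10 chr12:86056745-86079041, minus strand), the other TGF-beta ligand gene, went the opposite way. It had 59.6, 62.6 and 57.8 CPM in J0 CTL and 11.6, 9.74 and 10.4 in J7 CTL, a log2 fold change of -2.55 ± 0.06 (edgeR adjusted p 1.06e-21). Per length, on the authors' FPKM, Tgfb3 went from the highest level of the 3 TGF-beta genes (17.7) to the lowest (3.12).

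Inhba (ENSMUSG00000041324, mm10 chr13:16011851-16031621, plus strand) encodes the beta A subunit that forms activin A. Its levels of 30.4, 33.3 and 29.3 CPM in J0 CTL compare with 2.07, 2.15 and 1.34 in J7 CTL, where each library had 36 to 53 reads. The log2 fold change was -4.12 ± 0.12 (SE, edgeR adjusted p 1.15e-20), a 17.4-fold drop. Among the antagonists, Grem1 (ENSMUSG00000074934, mm10 chr2:113746164-113758646, minus strand) encodes gremlin 1, which binds BMP2 and BMP4. It had 261, 244 and 265 CPM in J0 CTL and 11.7, 12.9 and 10.7 in J7 CTL. This was the largest fall among the members, 22.6-fold (log2 fold change -4.50 ± 0.05 SE, edgeR adjusted p 1.97e-28). Fst (ENSMUSG00000021765, mm10 chr13:114452262-114458949, minus strand) encodes follistatin, the activin-binding protein. Its levels went from 107, 103 and 108 to 13.3, 10.9 and 12, a log2 fold change of -3.18 ± 0.05 (edgeR adjusted p 4.58e-25). Chrdl1 (ENSMUSG00000031283, mm10 chrX:143285674-143394262, minus strand) encodes chordin-like 1, a BMP antagonist. It was close to undetected in J0 CTL, with 14, 16 and 9 reads or 0.402, 0.549 and 0.363 CPM, and reached 8.91, 8.81 and 8.02 in J7 CTL. The log2 fold change was 4.23 ± 0.19 (edgeR adjusted p 2.42e-16), an 18.7-fold rise from a level set by few reads. The RefSeq annotation places other genes over 3 members: a long noncoding RNA and a small nucleolar RNA over Tgfb2, a transcribed pseudogene over Inhba for 11573 bases, and a long noncoding RNA over Fst. The overlap was taken over whole gene spans, introns included, and whether exons are shared was not tested. Use of strand in the counting is also not given in the sources used here. Whether reads of the overlapping genes entered the counts of these members is therefore not known.

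**Figure D1:**
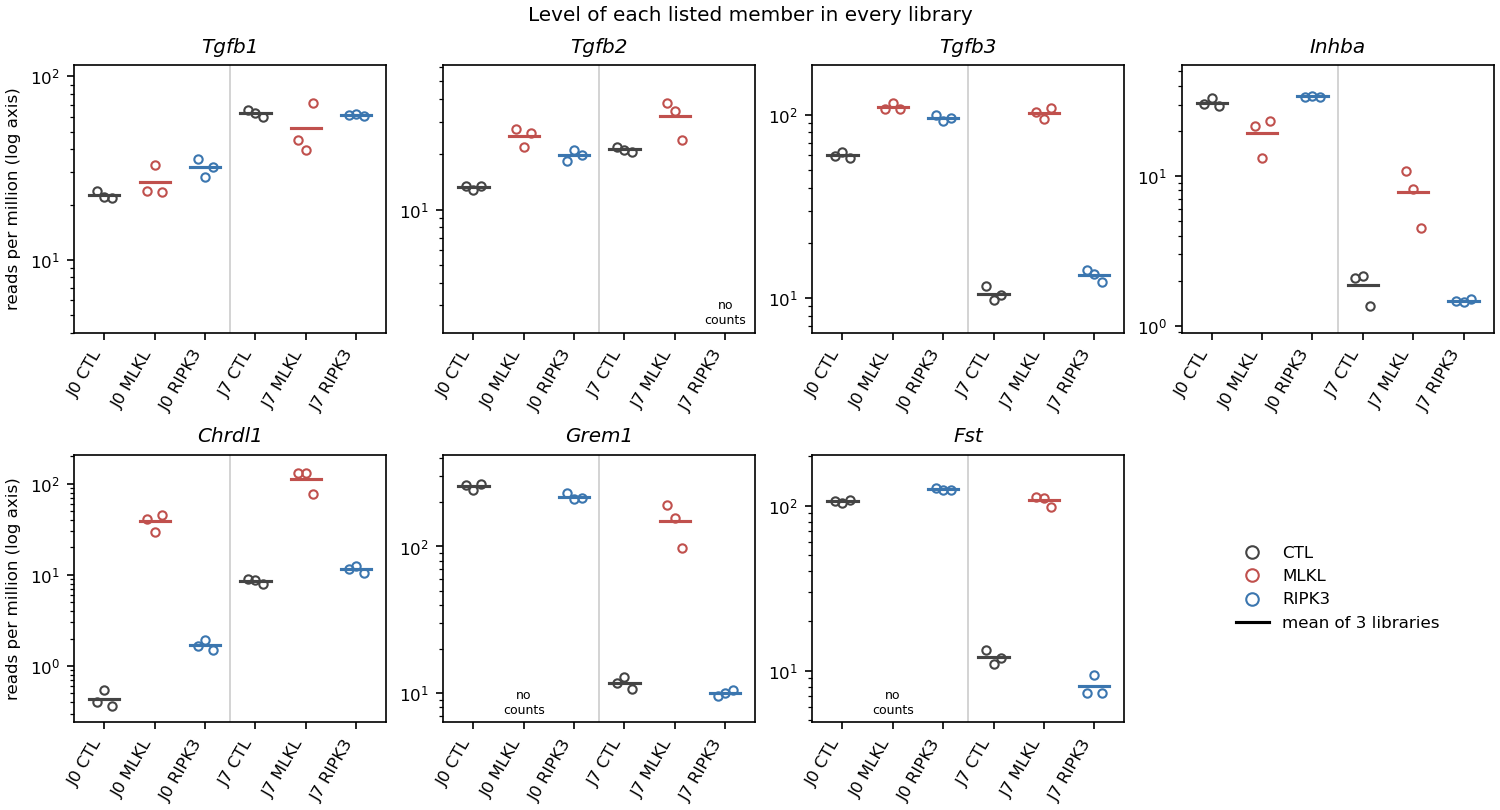
CPM (log axis) of the 7 listed members in each library, by group; circles are libraries, lines the mean of 3, and a group that no table gives for that gene has no counts. Tgfb3, Inhba, Grem1 and Fst are low in J7 CTL and J7 RIPK3, while in J7 MLKL Tgfb3 stays at 95.3 to 109 and Fst at 98.4 to 113.

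The RIPK3 line repeated the control directions in all 6 members it could be tested for (J7 RIPK3 against J0 RIPK3). Called were 6 of 6, 2 higher and 4 lower, where 97.8% of 11798 tested genes passed, 49.3% as higher and 48.5% as lower. Tgfb2 has no J7 RIPK3 counts, since neither table with those libraries lists it. The ligand Tgfb1 rose from 35.5, 28.3 and 32.1 CPM to 61.4, 62.1 and 61.0, a log2 fold change of 0.91 ± 0.06 (edgeR adjusted p 6.07e-12). Tgfb3 fell from 99.1, 92.1 and 95.7 to 14.3, 13.5 and 12.3, a log2 fold change of -2.87 ± 0.06 (edgeR adjusted p 1.41e-21). Inhba fell from 33.9, 34.4 and 34.0 to 1.46, 1.44 and 1.51, 23.5-fold and with 29 to 40 reads left per library (edgeR adjusted p 1.62e-20). In each of these genes the J0 and J7 libraries did not overlap, as in 97.2% of tested genes. Among the antagonists, Grem1 went from 230.0, 209 and 215 to 9.54, 10.1 and 10.5 CPM, a 22.1-fold fall (edgeR adjusted p 6.92e-25). Fst went from 128, 125 and 124 to 7.33, 9.41 and 7.32, a 16.1-fold fall (edgeR adjusted p 2.92e-23). Chrdl1 rose from 1.65, 1.92 and 1.49 to 11.5, 12.4 and 10.6, 6.75-fold (edgeR adjusted p 4.72e-14). So the antagonist genes that were abundant before differentiation fell and the scarce one rose, in this line as in the control. None was absent afterwards: over the J7 RIPK3 libraries these antagonist genes were at 7.32 to 12.4 CPM.

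The size of the change was also tested between RIPK3 and CTL, as the difference of the log2 changes from J0 to J7. That test called 4 of 6 members, all lower, where 39.0% of 11027 genes were called and 20.6% were lower. The rise of Tgfb1 was smaller in the RIPK3 line, with a log2 difference of -0.51 ± 0.08 (edgeR adjusted p 1.64e-05), as was that of Chrdl1, with -1.45 ± 0.27 (edgeR adjusted p 8.02e-05). Both genes started higher in J0 RIPK3 than in J0 CTL, and at J7 the lines differed by -0.02 and 0.43 on the log2 scale. The fall of Fst was larger, with a difference of -0.81 ± 0.10 (edgeR adjusted p 9.78e-08). Tgfb3 had a difference of -0.30 ± 0.09 (edgeR adjusted p 0.00995), and without library J7 CTL 1 its adjusted p was 0.059. Inhba (-0.42 ± 0.21, edgeR adjusted p 0.111) and Grem1 (0.05 ± 0.09, edgeR adjusted p 0.731) were not called. Without library J7 CTL 3, Inhba was called at -0.62 (edgeR adjusted p 0.0164).

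The MLKL line, as the titles name it, had a different course (J7 MLKL against J0 MLKL). Of 5 members with counts in both groups, 3 were called, Tgfb1 and Chrdl1 higher and Inhba lower, where 66.7% of 3075 tested genes passed, 35.8% as higher and 30.9% as lower, and libraries did not overlap for 72.2%. Grem1 and Fst have no J0 MLKL counts, because the tables that hold those libraries do not list them. Tgfb3 was at 107, 116 and 108 CPM in J0 MLKL and at 104, 95.3 and 109 in J7 MLKL. The groups overlapped and the log2 fold change was -0.14 ± 0.09 (edgeR adjusted p 0.234), beside -2.55 and -2.87 in the CTL and RIPK3 lines. Inhba went from 21.4, 13.1 and 23.3 to 10.7, 8.20 and 4.46 CPM. Its groups did not overlap and its log2 fold change was -1.35 ± 0.36 (edgeR adjusted p 0.0147), a 2.54-fold fall. Tgfb1 was at 23.6, 33 and 23.4 in J0 MLKL and 44.9, 39.9 and 71.9 in J7 MLKL, the highest value being that of library 3. Its log2 fold change was 0.94 ± 0.26 (edgeR adjusted p 0.0168). Tgfb2 was at 27.6, 21.8 and 26.3 and then at 38.3, 34.6 and 23.9, with overlapping libraries and a log2 fold change of 0.32 ± 0.20 (edgeR adjusted p 0.198). Chrdl1, already high at J0 with 40.7, 29.7 and 45.5 CPM, reached 130.1, 131 and 76.6 (log2 fold change 1.5 ± 0.26, edgeR adjusted p 0.00278).

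Single libraries decided several of these MLKL values. Without J0 MLKL 3 only Chrdl1 was called, since Tgfb1 had an edgeR adjusted p of 0.0625 and Inhba of 0.0504. Without J0 MLKL 1 the adjusted p of Tgfb1 was 0.0655, and without J7 MLKL 3 Tgfb2 was called at 0.49 (adjusted p 0.0122) while the value of Tgfb1 was 0.62. With both libraries that stand apart left out, all 5 members were called, Tgfb3 at -0.18 (edgeR adjusted p 0.00786) and Tgfb2 at 0.37 (edgeR adjusted p 0.000502). The share of all genes called in that fit is not reported here.

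Whether the MLKL line changed differently from CTL was tested in the same way. The test called 3 of 5 members, where 65.3% of 3033 genes passed, 39.0% as higher and 26.3% as lower. Tgfb3 differed by 2.37 ± 0.11 on the log2 scale (edgeR adjusted p 1.60e-08) and Inhba by 2.72 ± 0.44 (edgeR adjusted p 0.000202), which means that both fell less in the MLKL line. Chrdl1 differed by -2.77 ± 0.38 (edgeR adjusted p 5.45e-05): it rose less, from a J0 level far above the control. Tgfb1 (-0.55 ± 0.28, edgeR adjusted p 0.11) and Tgfb2 (-0.36 ± 0.22, edgeR adjusted p 0.161) were not called. Scaling by DESeq2 size factors moved the median of all tested genes by -0.31 and the share of calls that were higher from 59.8 to 48.8%. Under that scaling all 5 members were called, with Tgfb1 at -0.86 and Tgfb2 at -0.68, and they were also called without the libraries that stand apart, at -0.67 and -0.29. Adipocyte marker levels differed between J7 MLKL and J7 CTL, as given above, and their part in these differences was not tested.

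**Figure D2:**
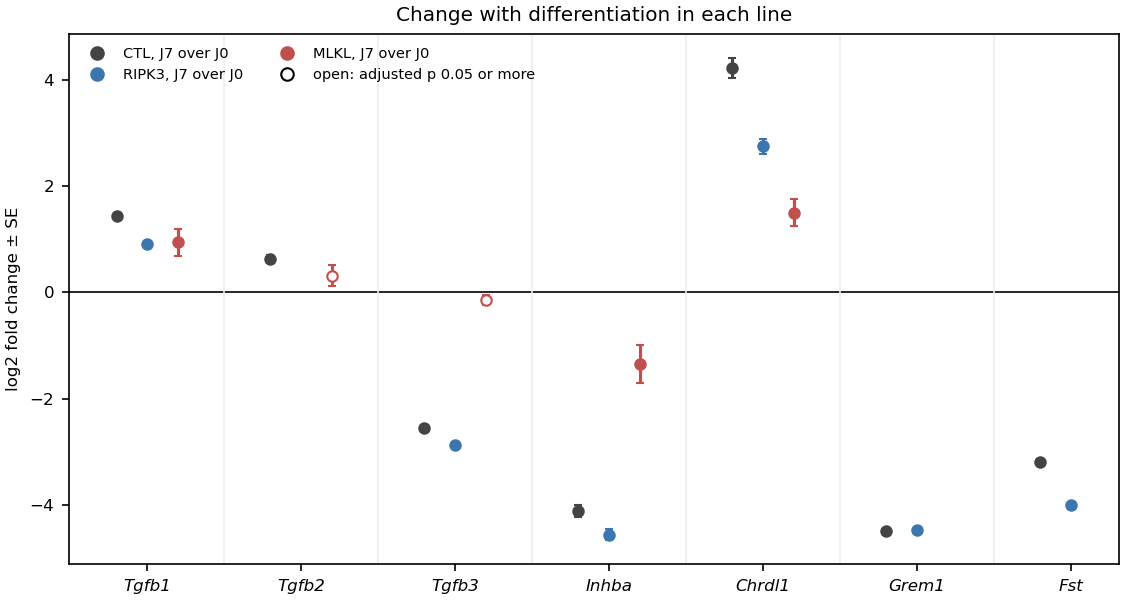
Log2 fold change of J7 over J0 (points) with its standard error (bars) for each member in the CTL, RIPK3 and MLKL lines; open points have an adjusted p of 0.05 or more, and a missing point has no counts in 1 of the groups. CTL and RIPK3 points lie together below -2.5 for Tgfb3 and Inhba, while the MLKL points are at -0.14 and -1.35.

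Before differentiation the MLKL line already differed from control in these genes (J0 MLKL against J0 CTL). The BMP antagonist Chrdl1 was at 29.7 to 45.5 CPM against 0.363 to 0.549, the highest control library lying far under the lowest MLKL library. Its log2 fold change of 6.47 ± 0.25 (edgeR adjusted p 1.57e-06), 89.0-fold, was the ninth largest in absolute size of 3824 tested genes. In all, 4 of 5 members were called, where 83.6% of the tested genes passed, 40.4% as higher and 43.2% as lower, and libraries did not overlap for 86.0%. Genes have J0 MLKL counts only where a table holding those libraries lists them, that is, where they passed the authors' threshold. Grem1 and Fst are missing for that reason, and both the members' count and the share over all genes are raised by it. Of the ligand genes, Tgfb2 (21.8 to 27.6 against 12.8 to 13.5 CPM) and Tgfb3 (107 to 116 against 57.8 to 62.6) rose by 0.96 ± 0.11 and 0.91 ± 0.06 on the log2 scale (edgeR adjusted p 0.000178 and 1.43e-05). Inhba was lower, at 13.1 to 23.3 against 29.3 to 33.3, with a log2 fold change of -0.66 ± 0.20 (edgeR adjusted p 0.0144). Tgfb1 was not called (0.28 ± 0.14, edgeR adjusted p 0.0883), but was without library J0 MLKL 3 (0.37, adjusted p 0.0451). The J0 groups of this comparison had low adipocyte marker levels, 400.0 to 507 CPM in J0 MLKL against 290.4 to 298 in J0 CTL, and the part of this difference was not tested. The higher sum came from Lpl (434 against 244 CPM), while Fabp4 (1.26 against 6.05), Pparg (20.5 against 26.5) and Cebpa (11.4 against 17) had lower means in J0 MLKL.

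Before differentiation the RIPK3 line also differed from control, by less than 2-fold in every member called except Chrdl1 (J0 RIPK3 against J0 CTL). Called were 6 of 7 members, 5 higher and 1 lower, where 55.8% of 11044 tested genes passed, 28.3% as higher and 27.4% as lower. Tgfb1, Tgfb2 and Tgfb3 rose by 0.49 ± 0.07, 0.56 ± 0.08 and 0.65 ± 0.04 on the log2 scale (edgeR adjusted p 2.54e-06, 1.37e-06 and 3.12e-12). For each of them the lowest J0 RIPK3 library lay above the highest J0 CTL library, as groups did not overlap for 60.9% of tested genes. Chrdl1 rose 3.71-fold (log2 fold change 1.89 ± 0.28, edgeR adjusted p 5.52e-06), to 42, 44 and 55 reads. The other antagonists moved little: Fst rose by 0.22 ± 0.03 (edgeR adjusted p 4.86e-06) and Grem1 fell by 0.26 ± 0.04 on the log2 scale (edgeR adjusted p 3.36e-06). Inhba had a log2 fold change of 0.11 ± 0.06 (edgeR adjusted p 0.0895) and was called without library J0 CTL 2 (0.17, adjusted p 0.0188) and with scaling by the recovered scale alone (0.14, adjusted p 0.0417). Both knockout comparisons at J0 use the same 3 control libraries.

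Set directly against each other at J0, the MLKL and RIPK3 lines differed in 4 of 5 members, where 66.5% of 3455 genes passed, 33.1% as higher and 33.4% as lower, and libraries did not overlap for 73.2%. Chrdl1 was 23.8-fold higher in J0 MLKL (log2 fold change 4.57 ± 0.20, edgeR adjusted p 4.35e-06) and Inhba 1.72-fold lower (-0.78 ± 0.19, edgeR adjusted p 0.00699). Tgfb2 (0.39 ± 0.11, edgeR adjusted p 0.0148) and Tgfb3 (0.25 ± 0.06, edgeR adjusted p 0.00947) were higher in J0 MLKL, but not called without single libraries. For Tgfb2 the adjusted p was 0.0512 without J0 MLKL 1, 0.0822 without J0 RIPK3 1 and 0.0699 without J0 RIPK3 3, and for Tgfb3 it was 0.0537 without J0 RIPK3 2. Tgfb1 was not called (-0.22 ± 0.15, edgeR adjusted p 0.235) until J0 MLKL 2 was left out (-0.41, adjusted p 1.87e-06).

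At J7 the MLKL line was above control in all members except Tgfb1 (J7 MLKL against J7 CTL). Called were 6 of 7 members, all higher, where 94.9% of 7263 tested genes passed, 48.5% as higher and 46.4% as lower, and the libraries of the groups did not overlap for 94.9%. Genes have J7 MLKL counts only where they passed the authors' threshold in a table holding those libraries. Both the members' count and the share over all genes are raised by it. Tgfb2, Tgfb3, Grem1 and Fst were listed for J7 MLKL only in the authors' comparison with J7 CTL, so their calls were nearly given in advance. The antagonists Chrdl1 and Grem1 had the largest differences. Chrdl1 was at 130.1, 131 and 76.6 CPM against 8.02 to 8.91, a log2 fold change of 3.82 ± 0.24 (edgeR adjusted p 2.63e-05). Grem1 was at 191, 157 and 97.1 against 10.7 to 12.9, a log2 fold change of 3.76 ± 0.27 (edgeR adjusted p 4.36e-05). Fst was at 113, 111 and 98.4 against 10.9 to 13.3, a log2 fold change of 3.26 ± 0.12 (edgeR adjusted p 5.94e-06). No J7 MLKL library came within the control range of any of these 3 genes, and in each the lowest was library 3.

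Of the ligand genes at J7, Tgfb3 was 10.4-fold higher in J7 MLKL (log2 fold change 3.38 ± 0.12, edgeR adjusted p 5.44e-06) and Inhba 4.51-fold higher (2.17 ± 0.37, edgeR adjusted p 0.00154). Tgfb2 rose by 0.70 ± 0.18 (edgeR adjusted p 0.00870). Tgfb1, the ligand gene that rose with differentiation in every line, had a log2 fold change of -0.16 ± 0.23 (edgeR adjusted p 0.503). That value depended on J7 MLKL 3, whose Tgfb1 level of 71.9 CPM exceeded all control libraries while the other 2 lay below them at 44.9 and 39.9. Without it the log2 fold change was -0.49 (edgeR adjusted p 3.82e-07), and in a fit over all 6 groups it was -0.43 (edgeR adjusted p 0.0295). Scaling by the recovered scale alone moved the median of all tested genes by -0.10, and no member changed its direction or call. Library J7 MLKL 3 also had the highest summed adipocyte markers of its group, 5163 CPM against 3621 and 4019, and the lowest fibroblast markers, 7098 against 7994 and 7801. J7 CTL had 21609 to 22696 and 2656 to 2719. Preadipocyte and adipocyte marker levels also differed between J7 MLKL and J7 CTL, and their part in the differences of the members was not tested.

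At J7 the differences of the RIPK3 line from control ran from -0.58 to 0.43 on the log2 scale over the 6 members tested (J7 RIPK3 against J7 CTL). Called were 3 of 6 members, where 59.1% of 11170 tested genes passed, 29.6% as higher and 29.5% as lower: Tgfb3 and Chrdl1 higher, by 0.35 ± 0.09 and 0.43 ± 0.10 on the log2 scale (edgeR adjusted p 0.00276 and 0.000718), and Fst lower. Fst had 7.33, 9.41 and 7.32 CPM against 13.3, 10.9 and 12, a log2 fold change of -0.58 ± 0.11 (edgeR adjusted p 0.000114). The groups did not overlap for any of these 3 genes, as for 62.5% of all genes tested. Tgfb1 had a log2 fold change of -0.02 ± 0.04 (edgeR adjusted p 0.761), with all 6 libraries between 60.4 and 65.3 CPM. Inhba (-0.31 ± 0.24, edgeR adjusted p 0.275) and Grem1 (-0.21 ± 0.10, edgeR adjusted p 0.0748) were not called, though Grem1 was without J7 CTL 3 (-0.28, adjusted p 0.0369). In a fit over all 6 groups Chrdl1 was not called (0.45, edgeR adjusted p 0.0791). Both J7 knockout comparisons share the J7 CTL libraries.

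Directly compared at J7, the 2 knockout lines differed in 5 of 6 members, all higher in J7 MLKL, where 86.8% of 6591 genes passed, 44.8% as higher and 42.0% as lower, and libraries did not overlap for 91.0%. Grem1 differed most, 16.6-fold (log2 fold change 4.05 ± 0.26, edgeR adjusted p 2.20e-05), followed by Fst at 15.1-fold, Chrdl1 at 11-fold, Tgfb3 at 8.67-fold and Inhba at 5.93-fold. Scaling by the recovered scale alone moved the median of all tested genes by -0.17 in this comparison. The limit on J7 MLKL counts given above applies here too. Tgfb1 had a log2 fold change of -0.06 ± 0.23 (edgeR adjusted p 0.816) and, without J7 MLKL 3, of -0.39 (edgeR adjusted p 2.97e-06).

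**Figure D3:**
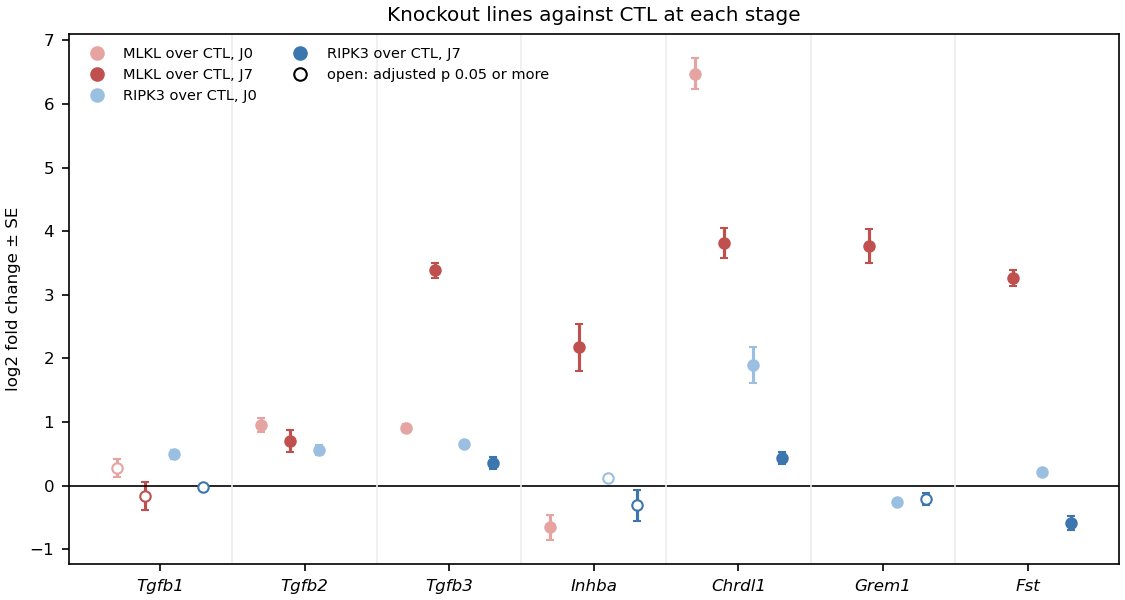
Log2 fold change of each knockout line over CTL (points, with standard error bars) at J0 and J7 for each member; open points have an adjusted p of 0.05 or more. Chrdl1 is at 6.47 in J0 MLKL, and Tgfb3, Chrdl1, Grem1 and Fst are at 3.26 to 3.82 in J7 MLKL, while J7 RIPK3 points lie between -0.58 and 0.43.

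The order of the groups differed from member to member. Tgfb1 was highest in the 3 J7 groups, whose libraries overlapped one another, and lower in the 3 J0 groups, which also overlapped in order. From the lowest to the highest group mean it spanned 2.80-fold, and Tgfb2 spanned 2.43-fold over 5 groups. Tgfb3 spanned 10.4-fold, with J0 MLKL, J7 MLKL and J0 RIPK3 at the top and overlapping in order, then J0 CTL, J7 RIPK3 and J7 CTL, each separated from the next. Inhba spanned 23.2-fold, and only its lowest groups, J7 CTL and J7 RIPK3, overlapped. Chrdl1 spanned 257-fold, and no neighbouring groups overlapped in the order J7 MLKL, J0 MLKL, J7 RIPK3, J7 CTL, J0 RIPK3 and J0 CTL. Grem1 spanned 25.5-fold over 5 groups with no overlap between neighbours, J0 CTL being the highest. Fst spanned 15.7-fold over 5 groups, and J7 MLKL (108 ± 8.17, SD, n = 3) and J0 CTL (106 ± 2.56) overlapped.

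Compared between genes on the authors' FPKM, which divides by gene length, the members changed rank. In J0 CTL the antagonist Grem1 led with 61.8 ± 2.74 FPKM (SD, n = 3), followed by Fst with 31.4 ± 0.758 and Tgfb3 with 17.7 ± 0.712. Grem1 and Fst made up 50.4 and 25.6% of the summed mean FPKM of the listed members. In J7 CTL the ligand Tgfb1 led with 12.5 ± 0.493 FPKM and 45.8% of the sum, while Grem1 was at 2.83 ± 0.271. J7 RIPK3 had the same leader, with Tgfb1 at 12.2 ± 0.113. In J7 MLKL the order began as in J0 CTL, with Grem1 at 35.8 ± 11.4, Fst at 31.9 ± 2.42 and Tgfb3 at 30.3 ± 2.07 FPKM.

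A pair of ratios within each library summarises the balance, and neither depends on library scale. Tgfb3 made up 79.0, 81.0 and 79.9% of the summed FPKM of Tgfb1 and Tgfb3 in J0 CTL and 20.9, 18.8 and 20.4% in J7 CTL. In J7 RIPK3 its share was 23.1 to 25.8%, and in J7 MLKL it was 77.5, 78.1 and 69.4%, so that the J7 MLKL libraries lay below every J0 MLKL library (84.0 to 87.3%) and far above the other J7 groups. The ratio of Fst to Inhba, the activin antagonist over the activin subunit, was 5.87 to 7.01 in J0 CTL and 6.88 to 7.14 in J0 RIPK3. It was 9.61 to 16.9 in J7 CTL, 9.19 to 12.4 in J7 RIPK3 and 20.0, 25.7 and 41.8 in J7 MLKL. Every J7 library therefore had more Fst per Inhba than every J0 library with counts, although in the CTL and RIPK3 lines both genes were lower at J7. The ratio in J7 rests on 29 to 53 Inhba reads per library in CTL and RIPK3.

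**Figure D4:**
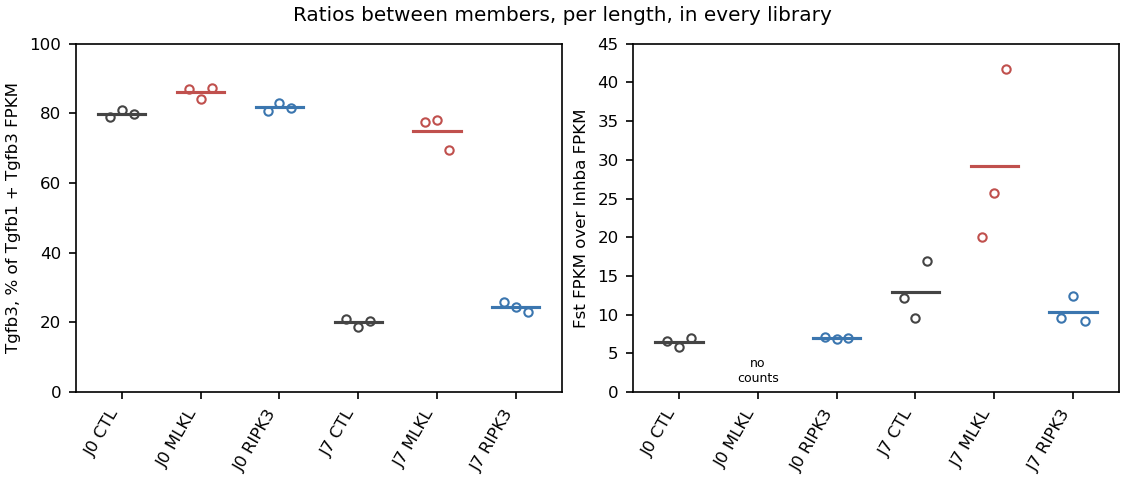
Share of Tgfb3 in the summed FPKM of Tgfb1 and Tgfb3 (left, percent) and ratio of Fst to Inhba FPKM (right) in each library (circles) with the group mean (lines); J0 MLKL has no Fst counts. The Tgfb3 share is 69.4 to 78.1% in J7 MLKL and 18.8 to 25.8% in the other J7 groups.

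The other genes of the pathway were read from lists of ligands, antagonists, latency and activation factors, receptors, SMADs, BMP targets and TGF-beta targets. In the control line, 9 of 10 tested latency and activation genes fell with differentiation and 1 rose, where 47.6% of all tested genes fell. Their median log2 fold change was -2.76, beside 0.03 over all tested genes. Among them were the latent TGF-beta binding protein gene Ltbp4 (57.9 ± 1.67 to 3.90 ± 0.565 CPM, SD, n = 3, log2 fold change -3.94), the TGF-beta activator Thbs1 (337 ± 12.5 to 22.8 ± 2.26, -3.93) and Lrrc32, which anchors latent TGF-beta on the cell (-3.78). The BMP target list fell in 8 of 8, led by the transcriptional inhibitors Id4 (-3.31) and Id2 (-3.21) and by Hey1 (-2.25). With the authors' size factors or the recovered scale alone, 7 of these 8 were called. The TGF-beta target list was mixed, 2 higher and 5 lower of 8: smooth muscle actin Acta2 (-3.16) and the collagen gene Col1a1 (-2.39) fell.

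Other antagonists in the control line fell in 6 of 9 and rose in 2, among them Nbl1 (-3.08) and Fstl1 (-3.04), and the BMP antagonist Nog rose (3.28, from 0.806 ± 0.176 to 7.96 ± 0.191 CPM). Other ligands split 3 to 3 of 6. Gdf5, a BMP-type ligand, rose from 7 reads in all 3 libraries to 505 (log2 fold change 6.28), Gdf15 rose (2.70) and Gdf11 fell (-3.13). Receptors were 5 higher and 8 lower of 13, with the largest changes in Eng (-1.43), Tgfbr2 (-1.19) and Acvr1 (-1.14). SMADs and their regulators were 3 higher and 8 lower of 12, among them Smad9 (-2.20), Smad3 (-1.87) and the repressor gene Skil (1.70). All values here are log2 fold changes called by edgeR at an adjusted p under 0.05, and Smad6, Smad7 and Skil stand in more than 1 list. In the RIPK3 line the latency and activation list was 1 higher and 10 lower of 11, and BMP targets were 0 higher and 7 lower of 8, where 49.3% of tested genes were higher and 48.5% lower.

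The comparison of J7 MLKL with J7 CTL uses the same J7 CTL libraries, so its values are given side by side with those above. Latency and activation genes were higher in 8 of 8 and BMP targets in 7 of 7, where 48.5% of tested genes were higher. Without the libraries that stand apart, and under each scaling tried, those counts were the same. They cover only genes with J7 MLKL counts, which had passed the authors' threshold in a table holding those libraries. Ltbp3, Lrrc32 and Id1 had J7 CTL counts but none in J7 MLKL, so they could not enter. The largest values were Ltbp4 (134 ± 20.2 against 3.90 ± 0.565 CPM, log2 fold change 5.20), Thbs1 (469 ± 188 against 22.8 ± 2.26, 4.46), Id4 (3.46) and Id2 (3.42). TGF-beta targets were higher in 5 of 8, with Acta2 (5.32), Ctgf (4.22) and Col1a1 (2.46) leading, and lower in 3. SMADs and regulators were higher in 6 of 8, Smad3 by 1.92. Other antagonists were higher in 4 and lower in 3 of 7, Fstl1 being higher (2.73) and Nog lower (-2.03). In the MLKL line itself, from J0 to J7, only 3 latency genes and 3 BMP targets had counts in both groups. There 1 latency gene, Ltbp4, rose (0.51), and the BMP targets Smad7 (0.76) and Msx1 (0.63) rose. Nog rose by 2.62, while Tgfbi fell by 2.12 on the log2 scale.

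Between the J0 lines, the lists split. In J0 MLKL against J0 CTL other antagonists were lower in 5 of 6, led by Nbl1 (-3.18), Nog (-1.44) and Bambi (-1.08), where 43.2% of tested genes were lower. BMP targets were lower in 3 of 4 and TGF-beta targets higher in 3 of 7, among them Pmepa1 (1.17) and Acta2 (1.12). That last count is near the 40.4% of tested genes that were higher. All J0 MLKL counts here cover only genes that passed the authors' threshold, as given above. In J0 RIPK3 against J0 CTL latency and activation genes were higher in 7 of 11 and lower in 4, where 28.3% of tested genes were higher and 27.4% lower. Tll1 was at 1.26, Ltbp1 at 0.93 and Ltbp4 at 0.68. Under the authors' size factors or the recovered scale alone, 2 were lower. In J7 RIPK3 against J7 CTL other antagonists were lower in 6 of 9, where 29.5% of tested genes were lower. They included Nog (-2.91) and Nbl1 (-1.64).

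**Figure D5:**
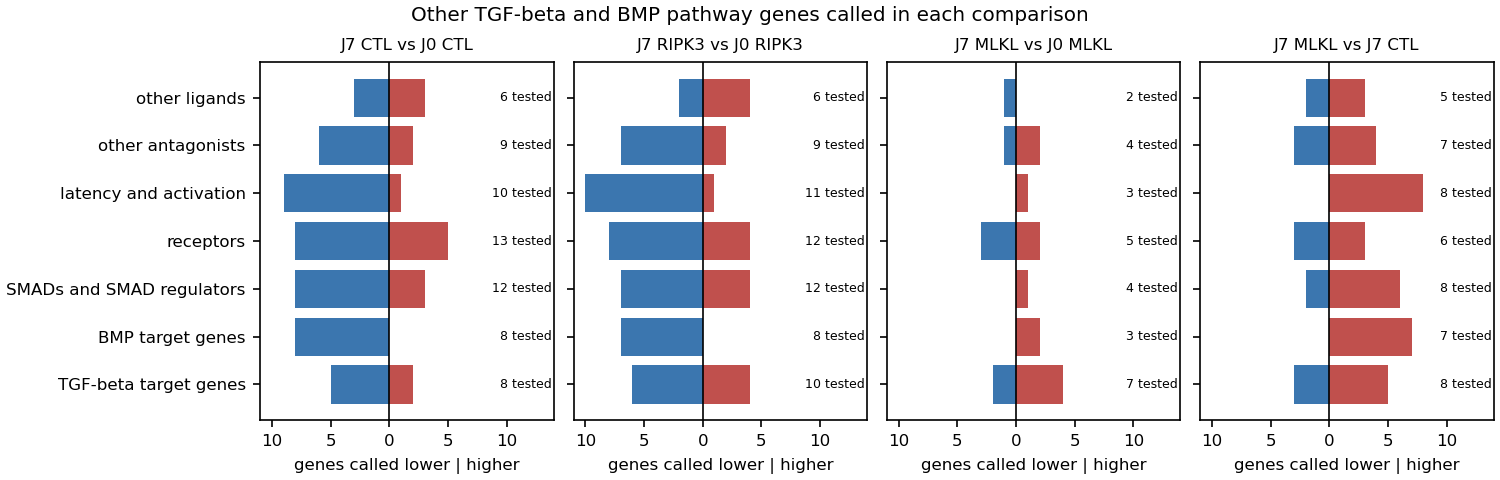
Number of genes of each pathway list called lower (bars to the left) or higher (bars to the right) at an adjusted p under 0.05 in 4 comparisons, with the number tested. Latency and activation genes are 9 lower in J7 CTL against J0 CTL and 8 higher in J7 MLKL against J7 CTL. Only genes with counts in both groups could enter.

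Among 2622 genes with counts in all 18 libraries, the genes whose levels followed a member most closely were found by the root mean square difference between centred log2 levels. For Tgfb1 these were Tnfrsf12a (0.139) and Hmox1 (0.141), beside a median of 1.05 over the genes compared. For Tgfb3 they were Ephb6 (0.125) and Dcn (0.220, median 1.38), and for Inhba Sema3a (0.249) and Fam131b (0.289, median 1.64). No gene followed Chrdl1 as closely, the nearest being Olfm2 (0.941) and Abca8a (1.21, median 2.51). The 18 libraries share 6 groups, so these values describe likeness over the groups as much as over libraries.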

How the data were processed

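RNA of 18 3T3-L1 libraries was measured. The submitters' processing notes name build mm10, HISAT2, DESeq2, featureCounts (version 1.5.0-p3) and FastQC (version 0.11.9). The 7 deposited comparison tables give raw read counts per library and gene. They also give the authors' FPKM, which scales a count by gene length and library, and coordinates and gene lengths in other columns. The authors' normalised counts (a signal, the count divided by a size factor) served to derive their size factors as an alternative. The authors' p-values, adjusted p-values and log2 fold changes in the deposited tables were read only for which genes a table lists. The other deposited tables were not analysed here.

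Counts were joined by gene identifier. Of 88950 counts given in more than 1 table, 0 differed. The scale of each library was recovered from count, FPKM and length, and is not a whole number. Levels (CPM) are counts divided by that scale in M. Genes that had counts in all groups of a comparison entered its fit with edgeR 4.0.16 in R 4.3.3 (filterByExpr, TMM factors on the recovered scale, quasi-likelihood F test, Benjamini-Hochberg over all genes tested, called under 0.05). Differences between changes are interaction contrasts. SEs of log2 fold changes come from the F statistic. The test was tried on simulated data. DESeq2 1.42.0 was an alternative. Promoters and overlapping genes come from RefSeq (GRCm38.p6). All members are named, with up to 3 called genes of a list per comparison that have the largest absolute log2 fold change, and the 2 genes most like a member (log2 of level plus 0.5, genes with at least 10 counts in 3 libraries). Members and lists were chosen with earlier results of these data known. Values of some single genes of the lists are not reported here.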

Additional observations from a re-analysis of the deposited data

Results flagged for a closer look

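In 7 cases the J7 minus J0 change of a member differed between a knockout line and the control line by the interaction test (edgeR quasi-likelihood, adjusted over all genes tested). Against CTL, the MLKL line differed in Tgfb3 by 2.37, in Inhba by 2.72 and in Chrdl1 by -2.77 on the log2 scale. The RIPK3 line differed in Tgfb1 by -0.51, in Tgfb3 by -0.30, in Chrdl1 by -1.45 and in Fst by -0.81. Chrdl1 is among both sets, and both tests use the same CTL libraries.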

How the results depend on the processing

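Over all alternatives, 999 log2 fold changes of members were recomputed: 962 kept their direction and side of the threshold, 11 lost the call, 26 gained it and 0 changed direction while called. A fit over all 6 groups holds only genes with counts in every library, which are 2802 genes and 4 members before the low-count filter. It called 2511 genes in J7 CTL against J0 CTL, 2589 in J7 RIPK3 against J0 RIPK3, 1992 in J0 MLKL against J0 CTL, 957 in J0 RIPK3 against J0 CTL, 2536 in J7 MLKL against J7 CTL, 1136 in J7 RIPK3 against J7 CTL, 2473 in J7 MLKL against J7 RIPK3 and 642 for the RIPK3 effect on the change. Of the members it called 4 in J7 CTL against J0 CTL, 3 in J0 RIPK3 against J0 CTL, 1 in J7 RIPK3 against J7 CTL and 1 for the RIPK3 effect, where fewer members could enter. In that fit Tgfb1 (-0.49, adjusted p 0.186) and Tgfb3 (-0.28, adjusted p 0.0686) were not called for the RIPK3 effect.

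Members called in J7 MLKL against J0 MLKL were 5 without the libraries that stand apart, and 1 to 4 with a single library left out, the lowest without J0 MLKL 3. For the MLKL effect on the change they were 5 with DESeq2 size factors, 5 with the DESeq2 test and 5 without the libraries that stand apart. The shares of all genes called in these fits are not reported here. The cause of these shifts in the count of members was not tested. Numbers shared by libraries did not pair them: correlations of same-numbered deviations ran from -0.798 to 0.629 in the MLKL line, and 4 of 18 libraries correlated best with their own number. With the replicate block the number of members called was 7 in J7 CTL against J0 CTL and 3 in J7 MLKL against J0 MLKL, as without it, and all genes called were 11551 and 1734 against 11555 and 2051. The authors' size factors and fits on a table's own genes were not run for the direct contrasts of the knockout lines or for the effects on the change. Depth limits Chrdl1 in J0 CTL (9 to 16 reads) and Inhba in J7 RIPK3 (29 to 40 reads).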
